A study of Mus musculus with 10 samples.

Results

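The pore-forming alpha1 subunits of voltage-gated calcium channels were compared between dorsal and ventral hippocampal cells of a Drd2-Cre line enriched for mossy cells. The members are the 8 Ensembl genes with the symbols Cacna1a, Cacna1b, Cacna1c, Cacna1d, Cacna1e, Cacna1g, Cacna1h and Cacna1i, chosen by name among 54838 genes in the count files, of which 16806 were expressed highly enough to be tested. All 8 were tested. The RNA came from translating ribosome affinity purification (TRAP), in which EGFP-tagged ribosomal protein L10a is precipitated with the mRNA it is translating. All libraries, 5 dorsal and 5 ventral, came from C57BL/6 mice of the same genotype, Drd2-Cre;Eef1a1LSL.eGFPL10a/+, which were males of about 10 weeks with no treatment named, and each library pooled the tissue of 5 mice. A replicate is therefore a pool. The authors describe separating each hippocampus into a dorsal and a ventral part, so both groups draw on the same mice. Which dorsal and ventral libraries share a pool of mice is not stated. Cre under Drd2 control drives the tagged ribosome in mossy cells, and also in GABAergic interneurons and in neurons of the ventral subiculum. The ventral subiculum was removed at dissection, although the authors state that a minor part may remain. They also state that the interneurons caught can be a substantial subset. Mossy cells are the excitatory neurons of the dentate hilus.

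Each high-voltage-activated calcium channel is built on a single alpha1 subunit, which forms the pore, senses the voltage and sets the type of current, while alpha2delta and beta subunits bring it to the membrane and tune its gating. P/Q type (Cacna1a) and N type (Cacna1b) channels trigger transmitter release at presynaptic terminals, L type channels (Cacna1c, Cacna1d) couple depolarization of the soma and dendrites to gene expression, and R type channels (Cacna1e) carry calcium into dendrites, spines and some terminals. T type channels (Cacna1g, Cacna1h, Cacna1i) open near the resting potential and support burst firing, and they do not need the auxiliary subunits.

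Counts on genes ranged from 11138676 to 16779821 in the dorsal and from 11618625 to 20594364 in the ventral libraries, and the members were covered by 72 to 6747 read pairs per library, so that none was near the detection limit. Levels are given as CPM, counts per library size after TMM scaling. The share of read pairs that fell outside genes was 27.0 ± 5.09% (SD, n = 5) in dorsal and 14.4 ± 2.997% (n = 5) in ventral libraries, and these groups did not overlap. The 8 mossy cell markers summed to between 573.8 and 650.8 CPM in dorsal and between 1172 and 1409 CPM in ventral libraries. Most of this gap was Calb2, which the authors use as a marker of ventral mossy cells. It was at 65.0 ± 9.30 CPM (SD, n = 5) in dorsal and 615.1 ± 94.4 CPM in ventral libraries. Of the 7 that were tested, Cyp26b1 was called dorsal-enriched (log2 fold change 1.05) and Calb2 and Satb1 ventral-enriched (-3.24 and -0.74), and Drd2 itself lay between 17.5 and 31.7 CPM in all 10 libraries. Markers of other cells were also present. The summed CPM of 8 astrocyte markers ran from 1976 to 2245 in dorsal and from 855.0 to 1454 in ventral libraries, that of 8 oligodendrocyte markers from 2398 to 2760 and from 846.5 to 1610, that of 8 dentate granule cell markers from 376.3 to 427.0 and from 197.5 to 338.4, and that of 12 GABAergic interneuron markers from 3687 to 4774 and from 4572 to 5836. The sums of 8 pyramidal cell markers overlapped (467.9 to 546.2 and 432.6 to 555.6 CPM), although single markers did not all do so. The sums of microglial (27.997 to 43.4 and 20.6 to 43.7 CPM) and endothelial markers (15.2 to 59.0 and 12.1 to 82.5 CPM) overlapped too. No marker was at 0 in all libraries. Astrocyte, oligodendrocyte and granule cell sums were thus higher in every dorsal library, as were Cacna1a, Cacna1d and Cacna1e below. The interneuron sums overlapped, and Gad2 made up most of them, with a dorsal mean of 2848 and a ventral mean of 3168 CPM. All 12 interneuron markers nevertheless had a log2 fold change below 0 (median -0.49), while 49.6% of all tested genes lay above 0. Of the 12, 4 were called ventral-enriched, namely Sst, Pvalb, Lhx6 and Kit, against 9.85% of all tested genes. The part of any of these cell types in the results was not tested. In such bulk samples, fewer cells of a type and less RNA per cell cannot be told apart.

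Cacna1a, Cacna1d and Cacna1e were each more than 2-fold higher in dorsal libraries, whereas Cacna1i was lower there, and Cacna1b, Cacna1c, Cacna1g and Cacna1h were not called. Calls needed an adjusted p under 0.05 and mean CPM, with 1 added, that differed by over 0.58 on the log2 scale (edgeR's quasi-likelihood test, Benjamini-Hochberg over all tested genes). Thus 3 of 8 members were called dorsal-enriched, against 15.7% of all tested genes and 11.4% of protein-coding ones, and 1 of 8 ventral-enriched, against 9.85% and 10.3%. The median log2 fold change of the 8 members, dorsal over ventral, was 0.45 with 7 of 8 above 0, while that of all tested genes was -0.0044 with 49.6% above 0. The groups did not overlap for 4 of 8 members, all of them called, compared with 18.2% of all tested genes, with dorsal libraries above for 3 members (9.81% of tested genes) and ventral libraries above for 1 (8.36%). The plot of CPM by library shows both the spread between members and that between replicates.

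**Figure D1:**
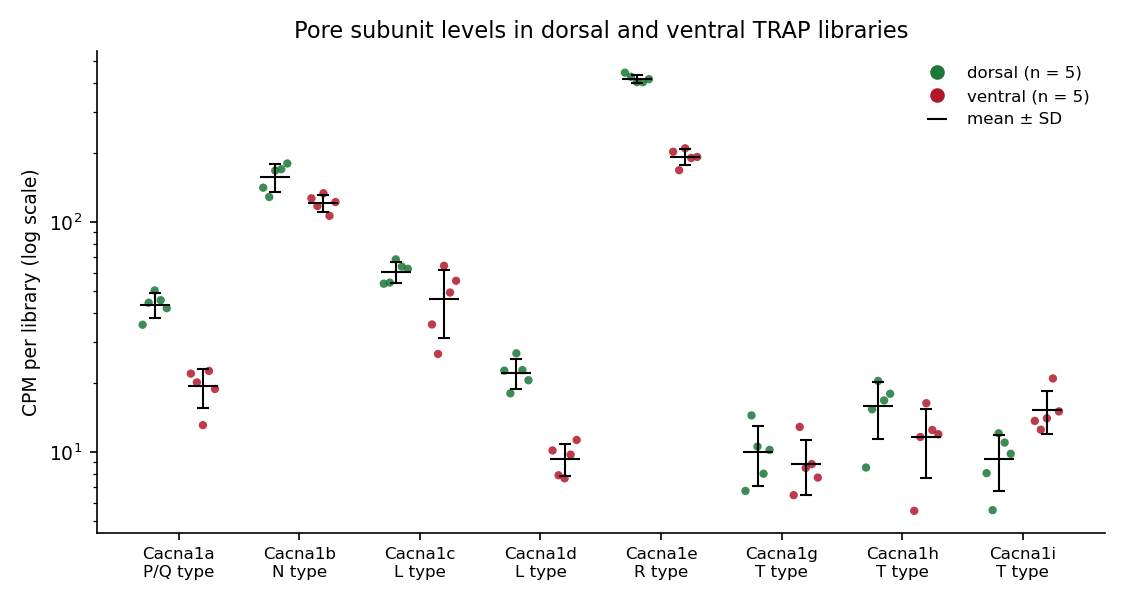
CPM of the 8 pore subunits in each of the 5 dorsal (green) and 5 ventral (red) libraries on a log scale, with the mean and SD of each group. All dorsal points lie above all ventral points for Cacna1a, Cacna1d and Cacna1e, all ventral points lie above the dorsal ones for Cacna1i, and the groups overlap for the other 4 members.

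Cacna1e (chr1:154390731-154884501, minus strand, gene coordinates on GRCm38), the pore of the R type channel, had the most reads of the family. Its level was 444.8, 427.0, 404.7, 404.4 and 416.8 CPM in dorsal libraries 1 to 5 and 201.5, 167.6, 208.7, 189.4 and 191.4 CPM in ventral libraries 1 to 5. Every dorsal library was above every ventral library and the replicates lay close together, with an SD of 17.0 CPM around the dorsal mean of 419.6 and 15.6 CPM around the ventral mean of 191.7. The fold was 2.19 (log2 fold change 1.13 ± 0.088 SE, adjusted p = 3.9e-06, edgeR's quasi-likelihood test).

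Cacna1a (chr8:84388440-84640246, plus strand), the pore of the P/Q type channel, which drives fast transmitter release at many central synapses, was measured at 35.7, 44.5, 50.3, 45.6 and 42.1 CPM dorsally and at 21.9, 20.03, 13.1, 22.5 and 18.8 CPM in ventral libraries. The lowest ventral value was in replicate 3 and the groups did not overlap. Cacna1a rose 2.26-fold in dorsal over ventral libraries (log2 fold change 1.17 ± 0.16 SE, adjusted p = 0.00018, edgeR). A predicted antisense gene, Gm16183, covers 3.81% of its exonic bases on the opposite strand, and whether counting used strand is not stated, so a small part of these reads cannot be assigned with certainty.

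Cacna1b (chr2:24603887-24763152, minus strand), the pore of the N type channel, which shares the presynaptic terminal with P/Q channels, stood at 140.7, 128.1, 167.0, 169.3 and 179.2 CPM dorsally and at 126.5, 117.1, 133.1, 106.2 and 121.9 CPM in ventral libraries. Dorsal replicate 2 lay within the ventral range. The difference passed the adjusted p alone (log2 fold change 0.38 ± 0.11 SE, adjusted p = 0.022, edgeR), as 19.0% of tested genes did with a higher dorsal and 14.6% with a higher ventral level, but it was below the fold threshold. The ratio of P/Q to N type CPM was 0.281 ± 0.0441 (SD, n = 5) in dorsal and 0.162 ± 0.0413 in ventral libraries, and ranged from 0.235 to 0.347 in the former and from 0.0982 to 0.212 in the latter.

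Of the L type pores, Cacna1d was called and Cacna1c was not. Cacna1d (chr14:30039939-30491455, minus strand), which encodes Cav1.3, an L type channel that opens at more negative potentials than Cav1.2, was at 22.5, 17.96, 26.8, 22.7 and 20.5 CPM dorsally and at 10.1, 7.91, 7.67, 9.72 and 11.3 CPM in ventral libraries. The groups were far apart relative to their spread, and the fold was 2.31 (log2 fold change 1.21 ± 0.18 SE, adjusted p = 0.00033, edgeR). The gene Chdh overlaps 4.67% of the exonic bases of Cacna1d on the opposite strand.

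Cacna1c (chr6:118587240-119196418, minus strand), which encodes Cav1.2, the main L type pore of the forebrain, was at 53.8, 54.4, 68.6, 63.8 and 62.4 CPM dorsally and at 35.8, 26.6, 64.4, 49.3 and 55.4 CPM in ventral libraries. Ventral replicates 1 and 2 were low, and ventral replicates 3 and 5 lay among the dorsal values. The log2 fold change was 0.39 ± 0.19 SE (adjusted p = 0.13, edgeR), which did not pass the test. Cacna1d made up 26.7 ± 2.102% (SD, n = 5; range 24.7 to 29.5%) of L type CPM in dorsal and 17.8 ± 4.95% (range 10.6 to 22.9%) in ventral libraries, without overlap.

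Among the T type pores, Cacna1i (chr15:80287238-80398279, plus strand), which encodes Cav3.3, the slowest of the T type channels to inactivate, went in the opposite direction to the other called members. It was at 8.08, 5.58, 12.04, 10.97 and 9.80 CPM dorsally and at 13.6, 12.5, 13.99, 20.8 and 14.98 CPM in ventral libraries. The groups did not overlap, but the gap between the highest dorsal value and the lowest ventral value was small compared with the range of either group. Its log2 fold change was -0.71 ± 0.23 SE (adjusted p = 0.027, edgeR). The call was lost in 7 of 25 alternatives. Without dorsal replicate 5 or ventral replicate 5 the log2 fold change was -0.71 and -0.72, with adjusted p of 0.058 and 0.055 in edgeR. Without dorsal replicate 2 or ventral replicate 4 it was -0.56 and -0.56 (adjusted p = 0.053 and 0.089), and it was -0.47 once GC content and exonic length were corrected for (adjusted p = 0.12).

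Cacna1h (chr17:25374285-25433783, minus strand), the Cav3.2 pore, was at 8.55, 15.3, 20.3, 16.7 and 17.9 CPM dorsally and at 5.54, 11.6, 16.3, 12.4 and 11.9 CPM in ventral libraries. Replicate 1 was the lowest in both groups, and the groups overlapped (log2 fold change 0.51 ± 0.26 SE, adjusted p = 0.15, edgeR). After the GC content and length correction the log2 fold change was 0.73 with an adjusted p of 0.029, so that Cacna1h was called dorsal-enriched there. Cacna1g (chr11:94408391-94474198, minus strand), the Cav3.1 pore, was at 6.76, 14.4, 10.5, 8.03 and 10.2 CPM dorsally and at 6.48, 12.8, 8.51, 8.84 and 7.73 CPM in ventral libraries. Its groups overlapped almost wholly (log2 fold change 0.23 ± 0.25 SE, adjusted p = 0.49, edgeR). Cacna1h overlaps Tpsg1, a gene on the opposite strand, over 1.62% of its exonic bases, and no other gene overlaps the exons of Cacna1g or Cacna1i.

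Summed over the T type genes, the level was 35.04 ± 7.19 CPM (SD, n = 5) in the dorsal group and 35.6 ± 6.21 CPM in the ventral group, with overlapping ranges. Cacna1i made up 27.0 ± 7.04% of it in dorsal and 43.2 ± 8.32% in ventral libraries, where the ranges (15.8 to 34.5% and 33.8 to 53.1%) overlapped slightly, and Cacna1h made up 44.3 ± 4.62% and 31.8 ± 7.41%. All 8 members summed to 737.8 ± 23.4 CPM dorsally and 423.1 ± 32.2 CPM ventrally without overlap, and Cacna1e alone carried most of that gap.

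The share of each channel type in the total alpha1 CPM of a library was taken next. R type accounted for 61.7, 60.4, 53.2, 54.5 and 54.9% of the total in dorsal libraries 1 to 5 and for 47.8, 44.6, 44.8, 45.2 and 44.2% in ventral libraries 1 to 5. All dorsal shares were above all ventral shares, with means of 57.0 ± 3.81% and 45.3 ± 1.45% (SD, n = 5 each), although dorsal replicates 1 and 2 stood above the other three. The N type share was lower in dorsal libraries, at 19.5, 18.1, 21.96, 22.8 and 23.6% against 30.01, 31.1, 28.6, 25.3 and 28.1% in ventral libraries. Since shares sum to the whole, this lower N type share of 21.2 ± 2.31% against 28.6 ± 2.197% went with a Cacna1b level whose mean was higher in dorsal libraries. The ratio of R to N type CPM was 2.73 ± 0.480 in dorsal and 1.59 ± 0.126 in ventral libraries without overlap.

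For T type channels the share was 3.24, 4.99, 5.65, 4.82 and 4.99% in dorsal and 6.08, 9.81, 8.33, 10.05 and 7.99% in ventral libraries. Again no dorsal library reached the lowest ventral share, while the summed T type CPM overlapped. P/Q type shares of 5.91 ± 0.661% in dorsal and 4.603 ± 1.09% in ventral libraries overlapped, as did L type shares of 11.2 ± 0.926% and 13.0 ± 2.83%. The total was itself higher in dorsal libraries, so that Cacna1d, although more than 2-fold higher there, had a share of 2.99 ± 0.387% in dorsal and 2.21 ± 0.364% in ventral libraries, with overlapping ranges.

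**Figure D2:**
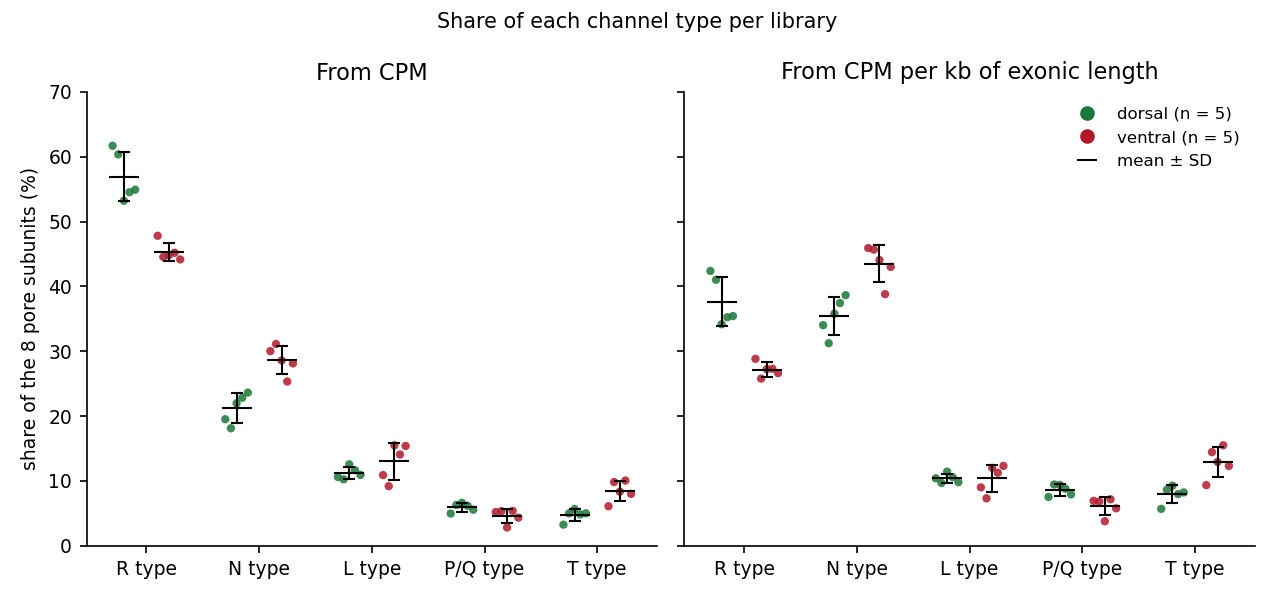
Share of each channel type in the total of the 8 pore subunits per library (points), with mean and SD, computed from CPM (left) and from CPM per kb of exonic length (right). In both panels the R type share is higher in every dorsal library and the N and T type shares are higher in every ventral library.

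Long mRNAs collect more reads, and the exonic length of the members ran from 9.763 to 25.228 kb, so that levels between genes were compared per kb of exonic length. On this scale, dorsal libraries held Cacna1e at 16.6 ± 0.673 and Cacna1b at 15.8 ± 2.16 CPM per kb, and these neighbours overlapped, with Cacna1e above Cacna1b in 2 of 5 libraries. Cacna1a (3.82 ± 0.468 CPM per kb) and Cacna1c (2.86 ± 0.301) followed, then Cacna1d (1.75 ± 0.258), Cacna1h (1.61 ± 0.454), Cacna1g (0.985 ± 0.288) and Cacna1i (0.942 ± 0.258). Only the steps from Cacna1b to Cacna1a and from Cacna1c to Cacna1d were free of overlap between neighbours in this order.

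In ventral libraries the N type led. Cacna1b stood at 12.2 ± 1.02 CPM per kb of exonic length, above Cacna1e at 7.60 ± 0.618 in 5 of 5 libraries without overlap, and Cacna1e in turn was clear of Cacna1c at 2.18 ± 0.714. From there down every neighbouring pair overlapped, through Cacna1a (1.69 ± 0.329), Cacna1i (1.54 ± 0.333), Cacna1h (1.18 ± 0.394) and Cacna1g (0.876 ± 0.236) to Cacna1d (0.740 ± 0.121 CPM per kb). Cacna1d, just below Cacna1c in the dorsal order, was last in the ventral one, and Cacna1i, last in the dorsal order, stood above Cacna1h in the ventral one, where these neighbours overlapped. The order of the leading pair rests on the length used: with the length of the longest annotated transcript, which is 14.921 kb for Cacna1e, Cacna1e was at 28.1 ± 1.14 and Cacna1b at 16.1 ± 2.21 CPM per kb in dorsal libraries, without overlap, and at 12.8 ± 1.04 and 12.4 ± 1.04 in ventral libraries, with overlap.

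**Figure D3:**
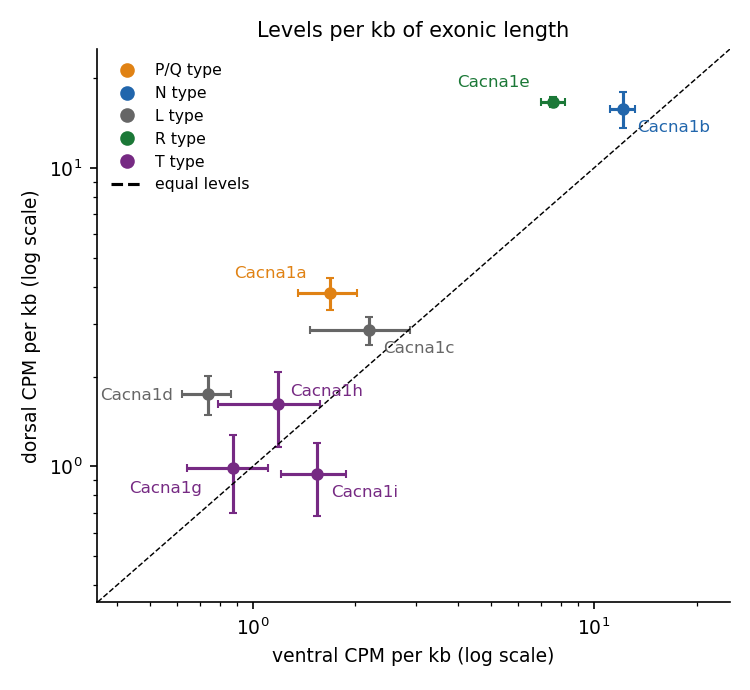
Mean dorsal against mean ventral level of each pore subunit in CPM per kb of exonic length, both axes on a log scale, with SD over 5 libraries each way. The dashed line marks equal levels; Cacna1i lies below it, and Cacna1a, Cacna1d and Cacna1e lie farthest above it.

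Per kb of exonic length, the R type share was 37.7 ± 3.77% in dorsal and 27.2 ± 1.12% in ventral libraries, the N type share 35.4 ± 2.92% and 43.5 ± 2.88%, and the T type share 7.94 ± 1.36% and 12.9 ± 2.35%. None of these 3 overlapped between the groups. The P/Q type share, 8.61 ± 0.867% and 6.08 ± 1.40%, also separated on this scale with dorsal libraries above, whereas the L type share was 10.4% in both. Per kb of longest transcript, however, the P/Q type shares (9.06 ± 0.925% in dorsal and 6.78 ± 1.57% in ventral libraries) overlapped. With offsets for GC content and exonic length fitted in each library, the R type shares (54.4 ± 2.69% and 48.0 ± 2.205%) stayed apart and the P/Q type shares (6.59 ± 0.547% and 4.12 ± 0.789%) separated with dorsal libraries above, but the N type shares (22.7 ± 2.14% and 27.0 ± 2.15%) and the T type shares (5.24 ± 0.236% and 7.58 ± 1.23%) then overlapped.

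Cacna1a, Cacna1d and Cacna1e were called dorsal-enriched in all 25 alternatives of normalization, filter, test, covariate and left-out library. When the share of read pairs outside genes entered as a covariate, a fit chosen after seeing the data, their log2 fold changes were 1.10, 1.202 and 1.13, with adjusted p of 0.046, 0.0496 and 0.0020 in edgeR's quasi-likelihood test. In the same fit Cacna1c, Cacna1g and Cacna1h lay at -0.036, -0.40 and -0.42 and did not pass the test, and Cacna1i at -0.86 with an adjusted p of 0.29. Since this share does not overlap between the groups, it and the group cannot be told apart.

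**Figure D4:**
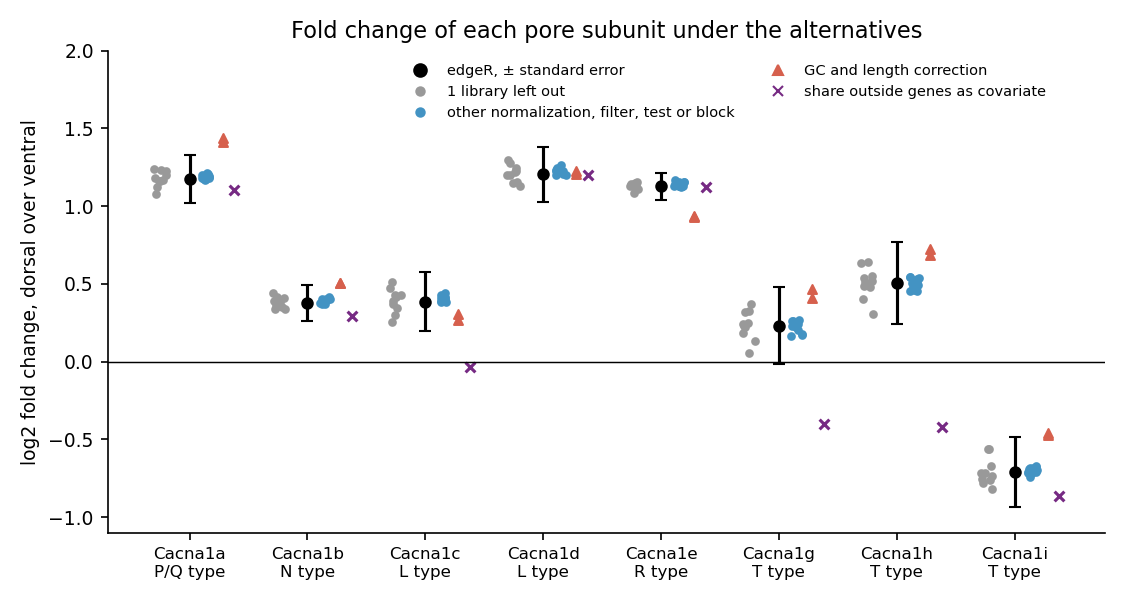
Log2 fold change, dorsal over ventral, of each pore subunit by edgeR (black, with standard error), with 1 library left out (grey), under other normalizations, filters, tests or the replicate block (blue), after GC content and length correction (triangles) and with the covariate for read pairs outside genes (crosses). Cacna1a, Cacna1d and Cacna1e stay above 0.9 throughout, Cacna1i stays below 0, and Cacna1c, Cacna1g and Cacna1h cross 0 only with the covariate.

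Upstream windows from RefSeq (build GRCm38.p6) are shown for Cacna1d, Cacna1e and Cacna1i, members whose mRNA level differed. The table of windows used here held 8 for 5 of 8 members, and those of Cacna1a, Cacna1g and Cacna1h were not analysed here. Each run below is the 250 bases before a start, 5′ to 3′ on the strand of the gene, with capitals marking the GC box, a motif bound by Sp1 family factors, spelled GGGCGG or, on the other strand, CCGCCC, where overlapping matches are counted separately. The first 2 lines are alternative starts of Cacna1d (chr14:30353487-30353736 and chr14:30491157-30491406, both minus strand), the third is Cacna1e (chr1:154725921-154726170, minus strand) and the last is Cacna1i (chr15:80286988-80287237, plus strand).
Cacna1d, GC-rich start: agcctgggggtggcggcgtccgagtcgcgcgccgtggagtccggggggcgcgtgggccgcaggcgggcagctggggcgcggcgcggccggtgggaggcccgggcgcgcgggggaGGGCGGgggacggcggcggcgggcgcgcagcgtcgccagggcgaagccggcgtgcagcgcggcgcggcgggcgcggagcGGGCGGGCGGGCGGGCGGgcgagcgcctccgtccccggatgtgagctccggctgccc
Cacna1d, AT-rich start: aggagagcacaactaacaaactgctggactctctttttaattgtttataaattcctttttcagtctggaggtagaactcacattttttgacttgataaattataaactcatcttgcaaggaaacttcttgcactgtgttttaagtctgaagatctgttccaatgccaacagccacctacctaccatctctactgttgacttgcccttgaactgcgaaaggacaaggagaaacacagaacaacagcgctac
Cacna1e: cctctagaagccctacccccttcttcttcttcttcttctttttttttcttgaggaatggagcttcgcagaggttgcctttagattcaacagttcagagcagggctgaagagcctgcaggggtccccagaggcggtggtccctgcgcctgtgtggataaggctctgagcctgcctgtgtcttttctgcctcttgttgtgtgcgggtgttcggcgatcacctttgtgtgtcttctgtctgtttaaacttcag
Cacna1i: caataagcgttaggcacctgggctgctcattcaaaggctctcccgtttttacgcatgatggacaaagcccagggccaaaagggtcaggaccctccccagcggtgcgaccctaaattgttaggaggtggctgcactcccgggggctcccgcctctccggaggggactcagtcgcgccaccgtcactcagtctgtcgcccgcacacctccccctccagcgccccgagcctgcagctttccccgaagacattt
The first Cacna1d window holds 5 GC boxes and 50 CpG in 86.4% GC, and the other Cacna1d window holds none, with 2 CpG in 39.6% GC. The Cacna1e and Cacna1i windows hold no GC box, at 52.0% and 62.4% GC. Among members that were not called, the Cacna1b window holds 3 GC boxes at 72% GC, and the Cacna1c windows hold 0, 6 and 0. The Cacna1i window directly precedes the annotated 5′ end of its gene at 80287238. That of Cacna1e lies inside the gene, whose annotated 5′ end is at 154884501. Both windows of Cacna1d also lie inside their gene, whose annotated 5′ end is at 30491455. The bases before the annotated 5′ end of Cacna1e were not among the windows, so whether they hold a GC box was not examined. A GC box occurs in 32.7% of all 32851 windows of this length. The counts are per gene and do not tell which start was used.

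Of the alpha2delta and beta genes, which encode the auxiliary subunits of high-voltage-activated channels, 1 of 8 was called, against 25.5% of all tested genes in either direction. Of 4 alpha2delta genes, which encode the extracellular subunit that carries channels to the membrane, 1 was called, to the dorsal side, and their median log2 fold change was -0.013. The called gene was Cacna2d2, at 79.7, 90.6, 81.4, 86.7 and 82.97 CPM in dorsal and 66.8, 65.8, 38.1, 44.3 and 45.5 CPM ventrally, where ventral replicates 1 and 2 were higher than the rest (log2 fold change 0.70 ± 0.15 SE, adjusted p = 0.0039, edgeR). The others ranged from Cacna2d4 at -2.05, with 0.718 and 3.32 CPM, to Cacna2d1 at 0.37. Cacna2d1 and Cacna2d3 (-0.40) passed the adjusted p alone, in opposite directions (adjusted p = 0.042 and 0.038, edgeR). None of the 4 beta subunit genes, whose cytoplasmic products bind the alpha1 subunit, was called (median -0.13, from -0.35 for Cacnb1 to 0.38 for Cacnb2, which passed the adjusted p alone), and the most abundant by CPM, Cacnb4, was at 349.8 ± 17.9 in dorsal and 359.3 ± 33.3 in ventral libraries.

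Gamma subunit genes, most of which in brain encode TARPs, the auxiliary proteins of AMPA receptors, were called dorsal-enriched in 3 of 7 tested, with a median of 0.97, where 15.7% of all tested genes and 11.4% of protein-coding ones were so called, and limma-voom called 2 of 7. Cacng5 was at 19.2, 26.7, 19.0, 17.4 and 20.9 CPM in dorsal and 6.09, 9.75, 4.64, 6.63 and 5.37 CPM ventrally (log2 fold change 1.70 ± 0.21 SE, adjusted p = 0.00012, edgeR), and Cacng4 ranged from 27.0 to 34.8 and from 6.24 to 23.6 CPM (1.22 ± 0.23, adjusted p = 0.0018). Cacng8 was called with overlapping groups (0.97 ± 0.31, adjusted p = 0.026), since dorsal replicate 1 was at 7.89 and dorsal replicate 2 at 31.6 CPM. Cacng2, Cacng3 and Cacng7, each at 47.7 to 112.0 CPM on average, differed by -0.13 to -0.011 and were not called, nor was Cacng6 (1.51 ± 0.69, adjusted p = 0.097, edgeR), at 1.25 and 0.407 CPM.

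None of 11 genes for proteins that bind the channels was called by edgeR (median 0.16), against 25.5% of all tested genes, and 4 of 11 had an unadjusted p below 0.05. DESeq2 and limma-voom also called 0 of these 11 and 0 of the 4 beta genes, of which 1 had an unadjusted p below 0.05 in edgeR. Among them Rimbp2, which ties presynaptic channels to release sites, and Stac2, an adaptor of L type channels, passed the adjusted p but not the fold threshold, at log2 fold changes of 0.45 and 0.51. Rem2, a small GTPase of the RGK group that inhibits high-voltage-activated channels, was called dorsal-enriched at 3.44 to 8.45 CPM in dorsal and 2.19 to 3.204 CPM ventrally (1.32 ± 0.30, adjusted p = 0.0049, edgeR), and of the others of its group Gem was tested and not called. The remaining pore subunits, Cacna1f of the retina and Cacna1s of skeletal muscle, fell below the expression filter, with means of 0.402 and 0.276 CPM dorsally and 0.0933 and 0.140 CPM ventrally.

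**Figure D5:**
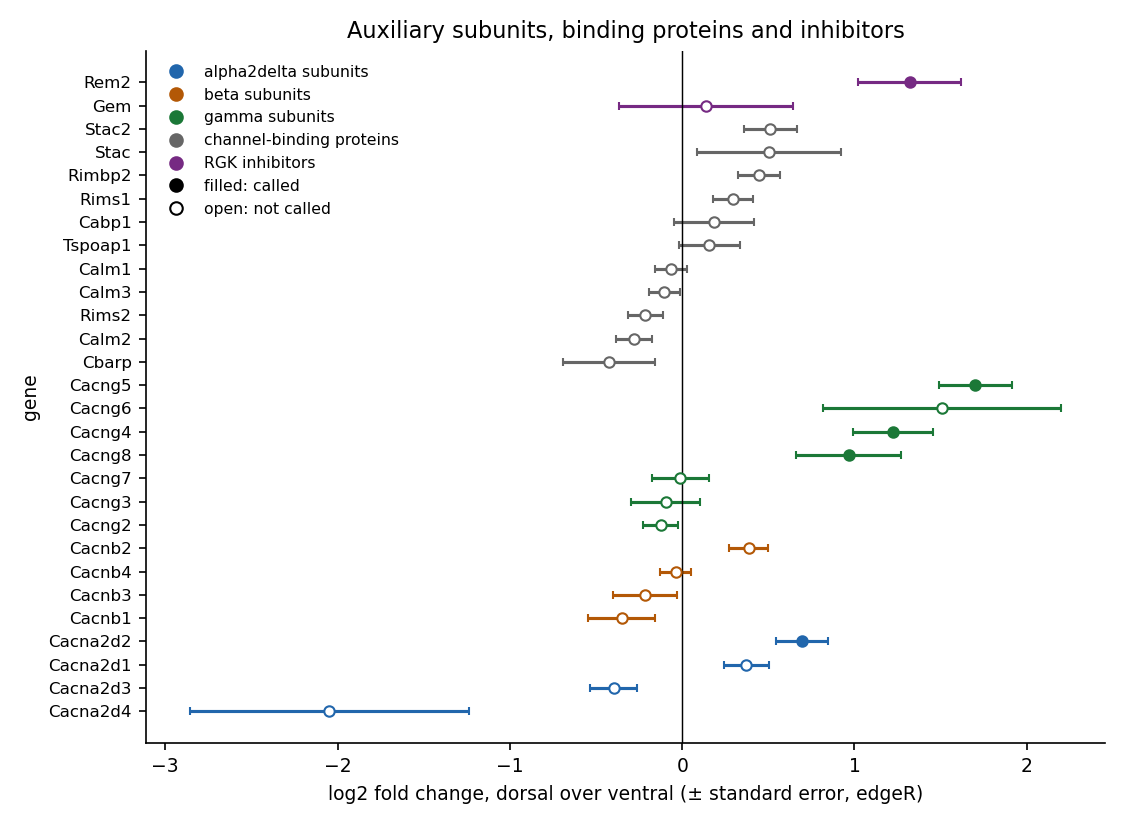
Log2 fold change with its standard error, dorsal over ventral, for tested genes of the auxiliary subunits, channel-binding proteins and RGK inhibitors. Filled points, Cacna2d2, Cacng4, Cacng5, Cacng8 and Rem2, were called and all lie to the dorsal side.

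After each group mean was subtracted, the Pearson correlation of log2(CPM + 1) between pairs of members over the 10 libraries ran from -0.56 (Cacna1e and Cacna1g) to 0.63 (Cacna1d and Cacna1i). The genes most like each called member on this measure, over the same 10 libraries, were Pcnx2 (0.984), Ankrd34a (0.983) and Gpat3 (0.971) for Cacna1a, Eif3h (0.953), 2610507B11Rik (0.949) and Pdcd2l (0.944) for Cacna1d, Slc36a4 (0.978), Lrp1b (0.977) and Ccnt1 (0.973) for Cacna1e, and Hps4 (0.945), Spata2 (0.943) and Dad1 (0.938) for Cacna1i. These are the highest of 16806 values for each member over 10 libraries that share their depth and makeup across all genes, and they were not compared with chance. No other member of the family was among them.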

How the data were processed

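RNA precipitated from Drd2-Cre TRAP mice was amplified with the Ovation RNAseq V2 kit and sequenced as paired ends, aligned by the authors to GRCm38 with STAR 2.5.2b and counted per Ensembl gene with HTSeq 0.7.2, per the submitters' processing notes. The deposited values are raw counts, neither normalized nor filtered. The annotation release and strand setting are not given in the sources used here. Read pairs outside genes and other summary lines were left out of library sizes. At these depths 3 counts equal 0.146 to 0.269 CPM, which covers counting error only, since reads of amplified cDNA that carry no molecular identifiers can copy the same molecule.

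Counts were tested in R 4.3.3 with edgeR 4.0.16 (CPM above 1 in at least 2 libraries, TMM, quasi-likelihood test, Benjamini-Hochberg adjustment over 16806 genes). Standard errors were taken as |log2 fold change| over the square root of F. Shares are per-library sums of CPM, described without a test. Lengths, GC content and overlaps came from GENCODE M21 on GRCm38, and upstream sequences from RefSeq. The alternatives were DESeq2 size factors, upper-quartile factors or total counts for TMM, no filter or one asking for 5 libraries, the DESeq2 1.42.0, likelihood-ratio and limma-voom (limma 3.58.1) tests, edgeR's own fold change in the call, a replicate block, a GC content and length correction by smooth offsets (mgcv 1.9.3), both of these, protein-coding genes alone and each library left out; shares were also taken per kb, after that correction, from summed counts and with Cacna1f and Cacna1s added. Added after seeing the data were edgeR 3 dispersions, the covariate for read pairs outside genes and the longest-transcript length.

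The members and lists were chosen with earlier results of these data known. Every member is named, with every called gene of the auxiliary lists, those needed to give a list's range, and the 3 genes most like each called member. Cacna2d3, Cacnb4, Cacng2, Cacng3, Cacng7, Rimbp2, Stac2, Gem, Drd2, Cyp26b1, Satb1, Calb2, Gad2, Sst, Pvalb, Lhx6 and Kit were added after their values were seen. The ratios between types, the shares within types and the upstream windows were also chosen after seeing the data. Same-numbered dorsal and ventral libraries did not deviate together (mean correlation 0.016). Both groups draw on the same mice, but no source states which dorsal and ventral libraries share a pool. The main fit did not pair them. Libraries of a group differed by 4.36 to 45.1 times sampling noise, so none was a duplicate. P-values measure the spread between pools.

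The count test was tested on simulated data. It missed a first criterion on the share of changed genes recovered; the criterion and the simulated fold sizes were then changed, in 2 steps, after that outcome was seen. In the final simulation unchanged genes made up a larger share of the calls than the nominal rate, so adjusted p-values close to the threshold, such as that of Cacna1i, carry more doubt than their size states.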

Additional observations from a re-analysis of the deposited data

Results flagged for a closer look

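Ventral replicate 1 stood apart from its group in the R type share, at 47.8% of total alpha1 CPM while the other four ventral libraries lay between 44.2 and 45.2%. Its gap to the nearest library was 0.718 of the group's range, just above Dixon's critical value of 0.71 for 5 samples. This was 1 flag in 28 groups checked, and chance flags about 1 in 20. Without it the ventral R type shares lie farther from the dorsal ones.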

How the results depend on the processing

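Of the 25 alternatives, the dorsal count of called members stayed at 3 or rose to 4. The ventral count, which is Cacna1i alone, fell to 0 with the GC content and length correction, with that correction and the replicate block, and with the covariate for read pairs outside genes, and it ran from 0 to 1 over the left-out libraries; the cause was not tested. Over all tested genes, 1665 were called dorsal-enriched among protein-coding genes alone, where fewer genes are tested, and 834 dorsal-enriched and 339 ventral-enriched with the covariate. Leaving out libraries gave 2104 to 2670 dorsal and 1215 to 1815 ventral calls. The replicate block gave 2656 dorsal and 1672 ventral calls, of which 2496 and 1533 were also called without it, and changed no member's call; 2 of 5 dorsal libraries correlated best with their own number. The difference in share, dorsal minus ventral, was 11.6 percentage points for R, -7.43 for N, -3.72 for T and 1.31 for P/Q type; with the GC content and length correction it was 6.41, -4.36, -2.34 and 2.46, and for P/Q type it was 2.52 per kb of exonic length and 2.29 per kb of longest transcript. Without any 1 library it ran from 10.5 to 12.6 for R, -8.25 to -6.65 for N, -4.31 to -3.32 for T, 0.858 to 1.55 for P/Q and -2.76 to -1.19 for L type. Depth was lowest for Cacna1g, Cacna1d, Cacna1h and Cacna1i, whose libraries held 72 to 394 read pairs.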
